A study of Mus musculus with 64 samples.

Results

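The miR-200 family and miR-203 are microRNAs best known from epithelial cells, and the miR-183 cluster from sensory hair cells and photoreceptors. Their levels were followed in the liver and the gonadal fat pad of arsenic-exposed mice. The 9 members were taken by name (mmu-mir-200a-3p, mmu-mir-200b-3p, mmu-mir-429-3p, mmu-mir-200c-3p, mmu-mir-141-3p, mmu-mir-203-3p, mmu-mir-183-5p, mmu-mir-182-5p and mmu-mir-96-5p, written without the mouse prefix from here on), as the unshifted entries of 2 deposited small RNA tables. They were 9 of 702 unshifted features among 1941 in all in liver, and 9 of 740 among 2173 in adipose tissue. Of the 9, 8 were above 0 and had a mean signal of at least 10 in both tissues, and miR-96-5p was listed at 0 in all 41 small RNA libraries. The series held 64 libraries, of which 41 were small RNA and 23 were mRNA. Humanized mice expressed the human ortholog of AS3MT, the enzyme that methylates inorganic arsenic, and wild type (WT) mice the mouse ortholog. All were 129S6/SvEvTac mice whose drinking water held 400 ppb of inorganic arsenic for 4 weeks, so no group was unexposed, and their ages were not given in the sources used here. Small RNA was measured in liver of 6 humanized males, 5 WT males, 5 humanized females and 5 WT females, and in adipose tissue of 5 humanized males, 4 WT males, 6 humanized females and 5 WT females. mRNA was measured in 3 libraries of each of these groups in each tissue, except for 2 of WT male adipose tissue. The small RNA library names carry a tag that differed between all libraries of a tissue and sex and often recurred between liver and adipose tissue, but the labels did not define it or say that each library came from a separate animal, so p-values measure the spread between these libraries.

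The miR-200 family is made from a pair of gene clusters and holds epithelial cells in their state by repressing Zeb1 and Zeb2, transcription factors that silence E-cadherin and other epithelial genes and that in turn repress the miR-200 genes. The miR-183 cluster encodes miR-183, miR-96 and miR-182 and is best known from sensory hair cells and photoreceptors, and miR-203 is a microRNA of the differentiating epidermis. Liver holds bile duct epithelium, and a gonadal fat pad is covered by mesothelium and lies against the epithelium of the reproductive tract. In bulk tissue, fewer cells of a type and less RNA per cell cannot be told apart.

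The mature sequences are given because a change of 1 base in the seed splits the miR-200 family in a pair of target groups that does not follow the gene clusters. Capitals mark the seed, bases 2 to 8 from the 5′ end, which pairs with target mRNAs. Sequences and positions are those of RefSeq for GRCm38.p6, and all 9 members were found there. The first 2 share one seed, the next 3 another, and the last 4 have a seed of their own each.
miR-200a-3p: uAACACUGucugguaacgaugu
miR-141-3p: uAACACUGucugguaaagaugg
miR-200b-3p: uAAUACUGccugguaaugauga
miR-200c-3p: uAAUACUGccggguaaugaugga
miR-429-3p: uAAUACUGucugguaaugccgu
miR-203-3p: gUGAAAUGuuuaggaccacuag
miR-183-5p: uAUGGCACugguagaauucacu
miR-182-5p: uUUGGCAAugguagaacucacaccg
miR-96-5p: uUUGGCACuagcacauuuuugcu
The sequences of miR-200a-3p (chr4:156054911-156054932, minus strand) and miR-141-3p (chr6:124717917-124717938, minus strand) differed at 2 of 22 positions. Likewise miR-200b-3p (chr4:156055685-156055706, minus strand) and miR-200c-3p (chr6:124718324-124718346, minus strand) differed at 2 positions, although they lie on different chromosomes. By contrast miR-200a-3p and miR-200b-3p, neighbours on chromosome 4, differed at 4 positions, 1 of them in the seed. The other microRNA of that cluster, miR-429-3p, lies at chr4:156053916-156053937 on the same strand. The 3 microRNAs of the chromosome 4 cluster spanned 1827 bases and overlapped the long noncoding RNA gene Gm13648. The miR-200c and miR-141 cluster spanned 470 bases between the protein genes Phb2 and Ptpn6. Here and for the miR-183 cluster, at least 1 end of the span is that of a mature sequence, so full hairpins can reach further. The miR-183 cluster, at chr6:30169711-30169732 (miR-183-5p), chr6:30169506-30169528 (miR-96-5p) and chr6:30165962-30165986 (miR-182-5p), all on the minus strand, spanned 3810 bases between Nrf1 and BB283400. miR-203-3p lies at chr12:112130927-112130948 on the plus strand, between Aspg and Kif26a.

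Small RNA values were the authors' normalized signal, and every value was a whole multiple of 1 step per library, the smallest being 10 steps. If 1 step is 1 read, which the files do not state, listed reads per library ran from 5819451 to 16647090 in liver and from 10772191 to 34352654 in adipose tissue. Features under 10 such reads would then be listed at 0, which corresponded to a signal below 6.65 to 19.8 in liver and below 5.49 to 16.1 in adipose tissue, depending on the library. In the adipose mRNA libraries mouse As3mt was at most 5.33 in humanized mice, against 1218 or more in WT mice, and As3mt, Xist and Ddx3y matched every label in both tissues, although 1 WT female adipose library held 220.1 of the Y-linked Ddx3y, against 7397 or more in males. The adipocyte gene Adipoq matched the labelled tissues. The hepatocyte microRNA miR-122-5p was at least 4.34e+06 in every liver library. It was lower but present in every adipose library, at 33874 to 683904, and its source there was not tested. In adipose tissue 2 small RNA libraries stood apart: WT female 10, also the deepest, had 11 unshifted features at least 4-fold above every other library, among them the members miR-200c-3p and miR-141-3p, and humanized female 9 had 3, none of them a member. Library names in the labels had 2 forms, with the tag first (form 1) or the group first (form 2), in both genotypes and sexes of both tissues. What the forms stand for was not given in the sources used here, and the name form was a term in each small RNA fit. In those fits a member counted as called when its limma p, adjusted by the Benjamini-Hochberg method over all features tested (837 in liver, 1298 in adipose tissue), was under 0.05.

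In adipose tissue the miR-183 cluster was lower in males than in females, and the miR-200 family was not called. Of the 8 members tested, 2 were called by sex, miR-182-5p and miR-183-5p, both lower in males, where 10.0% of all features were called and 5.70% were called lower. At an unadjusted p under 0.05 the number was 4, with miR-200b-3p and miR-429-3p added, where 28.0% of all features passed. All 8 differences were negative, from -1.39 for miR-182-5p to -0.16 for miR-203-3p on the log2 scale. The median over all features was -0.01, and members of 1 gene cluster moved together, so these are not 8 separate cases. For miR-182-5p, made from the same cluster as miR-183-5p, the signal was 300.0, 427, 291, 262 and 386 in humanized males and 415, 377, 272 and 465 in WT males. It was from 479 to 1329 with a median of 559.9 in 6 humanized females, and 424, 1008, 2898, 2143 and 1273 in WT females. The 9 males were low and alike and the 11 females were higher and more spread, so that 7 males lay below every female, 10 females lay above every male, and WT female 6 fell among the males. The difference was -1.39 on the log2 scale (SE 0.28, limma adjusted p = 0.00384). For miR-183-5p the signal was 59.8, 69.9, 80.0, 39 and 59.6 in humanized males and 73.9, 85.7, 72.5 and 92.3 in WT males. It was from 86.5 to 225 with a median of 148 in humanized females, and 88.5, 226, 171, 558 and 76.5 in WT females. Both sexes overlapped more for this member, with 6 of 9 males below every female and 8 of 11 females above every male. Its difference was -1.14 on the log2 scale (SE 0.30, limma adjusted p = 0.0226). Single features of other lists were also called by sex in adipose tissue. Of 9 other epithelial microRNAs tested 1 was called, near the 10.0% of all features. It was miR-34c-3p, at -3.04 on the log2 scale (SE 0.79, limma adjusted p = 0.0223). The 1 gonad microRNA tested, miR-201-5p, differed by -2.87 on the log2 scale (SE 0.77, limma adjusted p = 0.0239). The hepatocyte microRNA miR-122-5p differed by 1.04 on the log2 scale (SE 0.29, limma adjusted p = 0.0292). miR-34c-3p was listed at 0 in all WT males, humanized male 8 and humanized females 7 and 8. miR-201-5p was listed at 0 in humanized males 8 and 13 and WT males 6 and 9. The sizes of the miR-34c-3p and miR-201-5p differences depend in part on that floor. The part of these other microRNAs in the sex difference of the miR-183 cluster was not tested. Neither call rested on WT female 10 or humanized female 9: without both, the differences were -1.28 for miR-182-5p (limma adjusted p = 0.0156) and -0.82 for miR-183-5p (limma adjusted p = 0.0369). Within either name form alone, with fewer libraries, neither was called: miR-182-5p differed by -1.04 in form 2 libraries (adjusted p = 0.222) and by -1.81 in form 1 libraries (adjusted p = 0.0625), and miR-183-5p by -0.86 (adjusted p = 0.133) and -1.51 (adjusted p = 0.324).

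**Figure D1:**
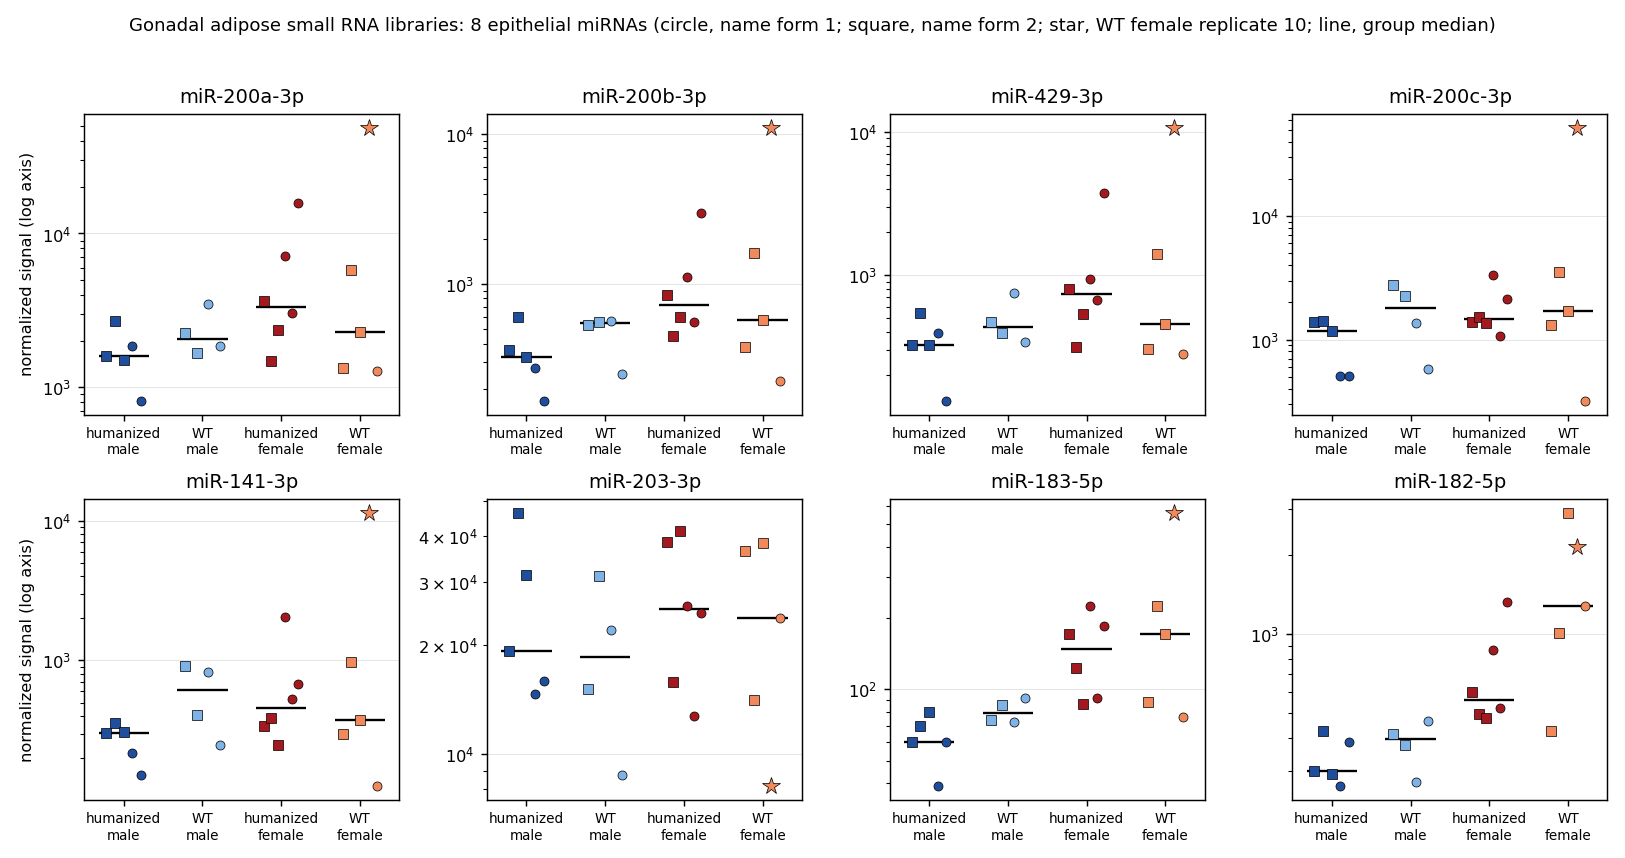
Normalized signal of the 8 measured members in each of the 20 adipose small RNA libraries on a log axis, humanized and WT males and then humanized and WT females from left to right. Circles are name form 1, squares name form 2, the star WT female 10 and the short lines group medians; male points sit low for miR-182-5p and miR-183-5p, and the star stands far above all other points for the 5 miR-200 members but lowest of all for miR-203-3p.

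The 5 miR-200 members had a wide range within each adipose group, and none was called by sex. miR-200a-3p, the member with the highest median in the family, had a signal of 1599, 2685, 1505, 1854 and 814 in humanized males and 2244, 1679.6, 3502 and 1866 in WT males. In females it was from 1481 to 15832 with a median of 3341 in the humanized group, and 1338, 5753, 2269, 48803 and 1268 in the WT group. The sexes overlapped, with 5 of 11 females above every male and 1 of 9 males below every female. miR-200c-3p had a signal of 1397, 1419, 1165, 508 and 503 in humanized males and 2781, 2257, 1352 and 578 in WT males. In females it was from 1068 to 3354 with a median of 1460.2 in the humanized group, and 1322, 3510.1, 1699, 51866 and 319 in the WT group. WT female 10 was far above the rest, and WT female 11 was the lowest of all 20. Differences of males against females were -1.27 for miR-200b-3p (limma adjusted p = 0.140), -1.17 for miR-429-3p (0.173), -1.11 for miR-200a-3p (0.183), -0.86 for miR-200c-3p (0.406) and -0.73 for miR-141-3p (0.463). Without WT female 10 these were -0.81, -0.74, -0.68, -0.25 and -0.22 in the same order, so the size of the differences of miR-200c-3p and miR-141-3p rested mostly on that library. Without humanized female 9 as well, they were -0.08 for miR-200c-3p and 0.02 for miR-141-3p. The sizes also differed between the name forms: in form 2 libraries alone the differences were -0.46 for miR-200b-3p, -0.42 for miR-429-3p, -0.37 for miR-200a-3p, 0.11 for miR-200c-3p and 0.19 for miR-141-3p, and in form 1 libraries alone, which include WT female 10, they were -2.29, -2.16, -2.07, -2.08 and -1.86 in the same order, with none called. miR-203-3p, whose lowest signal was 8169 in WT female 10, was 8771 to 46418 (median 19339) in males and 8169 to 41426 (median 24636) in females, and differed by -0.16 on the log2 scale (SE 0.28, limma adjusted p = 0.728).

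No member was called by limma between humanized and WT adipose tissue. None of the 8 was called in males, where 0.616% of all features were called, and none in females, over both sexes together or for the genotype by sex term, where 0% were called. At an unadjusted p under 0.05 there was 1 member in females, miR-182-5p, where 2.47% of all features passed. No member passed in the other 3 comparisons. There 15.3% of all features passed in males, 13.9% over both sexes and 4.85% for genotype by sex. In females miR-182-5p averaged 714 ± 333 in humanized libraries (SD, n = 6) and 1549 ± 976 in WT libraries (SD, n = 5), a difference of -0.97 on the log2 scale (SE 0.37, limma adjusted p = 0.998). The ranges overlapped, with 2 WT females above every humanized female and no humanized female below every WT female. Without WT female 8, the highest library, the difference was -0.65. In males, 7 of 8 members were lower in humanized mice, from -0.99 for miR-141-3p to 0.33 for miR-203-3p, where the median over all features was 0.04. Members of 1 gene cluster moved together, so these are not 7 separate cases. miR-141-3p was 302, 360.0, 309.6, 216.7 and 151 in humanized males and 908, 410.5, 820.3 and 249 in WT males, where the difference had an SE of 0.90 and an adjusted p of 0.635. It was -0.60 without WT male 6 and -1.83 with the replicate number as a block, and was called in neither. 3 of 4 WT males lay above every humanized male, and the 4th lay within their range. The genotype by sex term ran from -0.57 for miR-141-3p to 0.81 for miR-182-5p, with SEs of 0.55 to 1.28. In no member did humanized and WT libraries of 1 sex, or males and females, separate without overlap in either tissue. The share of all features that separate in this way was not counted, so nothing particular to the members is read from it.

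**Figure D2:**
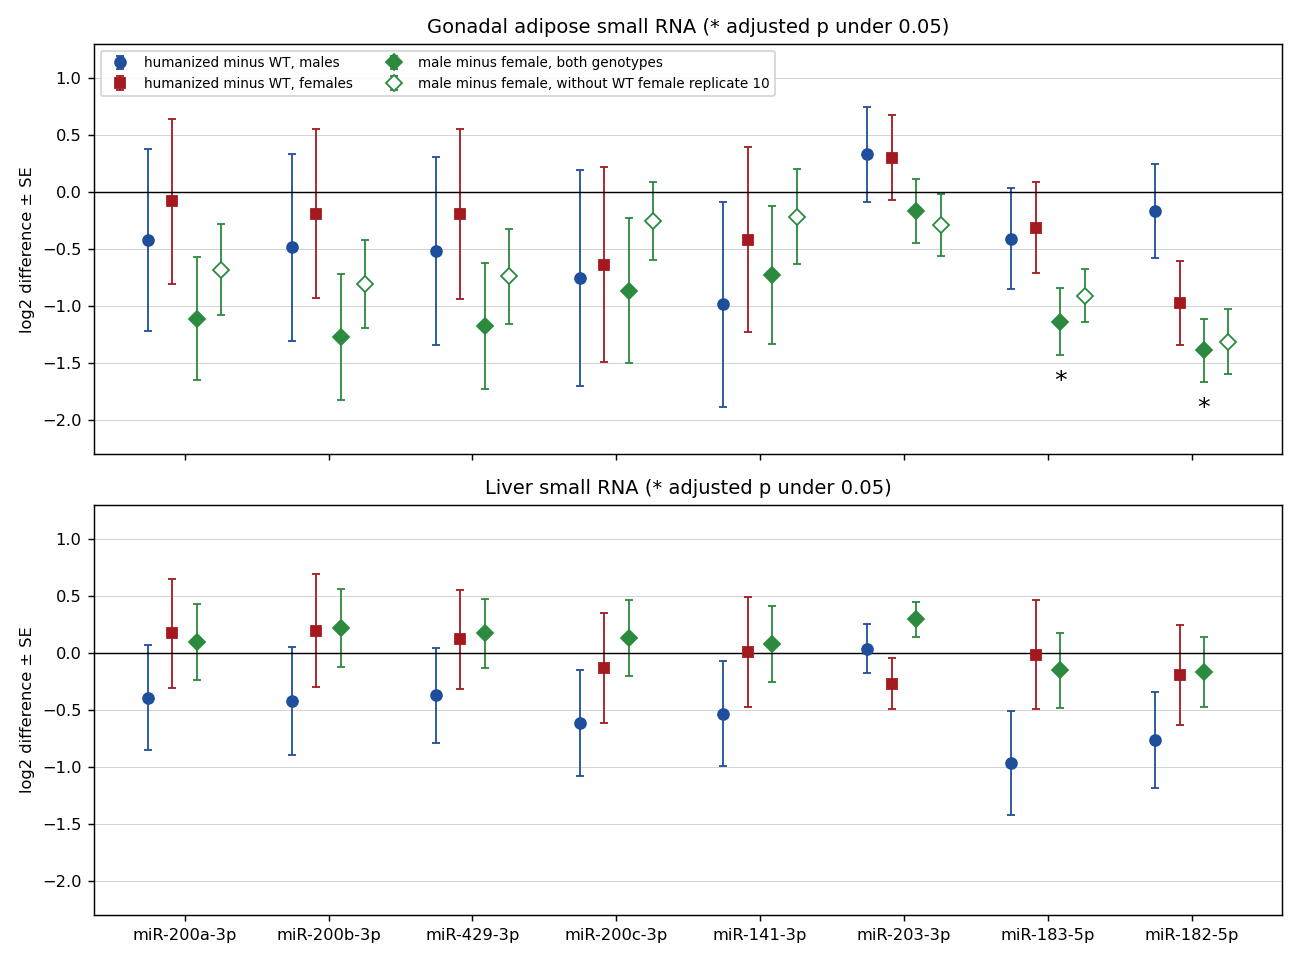
Log2 differences with their standard errors for the 8 measured members in adipose tissue (top) and liver (bottom), for humanized minus WT in each sex and for male minus female, with open diamonds for male minus female without WT female 10. Asterisks mark adjusted p under 0.05, which only miR-182-5p (-1.39) and miR-183-5p (-1.14) reached among these comparisons, both for sex in adipose tissue.

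WT female 10 carried all 5 miR-200 members at the highest level of the 20 adipose libraries. Against the median of the other 19 libraries it was 37.3-fold higher for miR-200c-3p, 31.5-fold for miR-141-3p, 23.3-fold for miR-429-3p, 21.7-fold for miR-200a-3p and 19.8-fold for miR-200b-3p. It was also highest for miR-183-5p (558, 6.46-fold) and the second highest for miR-182-5p (2143), after WT female 8 (2898). These fold values describe a library picked out for standing apart and carry no test. The same library was highest for 10 of the 11 other epithelial microRNAs of the list that were above 0 in adipose tissue. The share of all features that were highest in it was not counted, and its depth favours rare features. One of the 10, miR-31-3p, was listed at 15.4 there, at 10.9 in WT male 11 and at 0 in the others. WT female 10 held 109625 of miR-34c-5p, a microRNA of multiciliated cells and germ cells, against 587 to 4878 in the other 19 libraries. It held 6744 of miR-34b-3p against 28.6 to 257.6, and 4796 of miR-449a-5p, of the same seed family, against 165 to 1344. It held 1889 of miR-205-5p, a microRNA of stratified and glandular epithelium, against 34.1 to 1125. Of 15 gonad and germ cell microRNAs on the list, 2 were above 0 in any adipose library, miR-201-5p and miR-547-3p, and neither was highest in WT female 10. The part of epithelium carried with the fat pad in these values was not tested, since no other record of that library was used here.

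**Figure D3:**
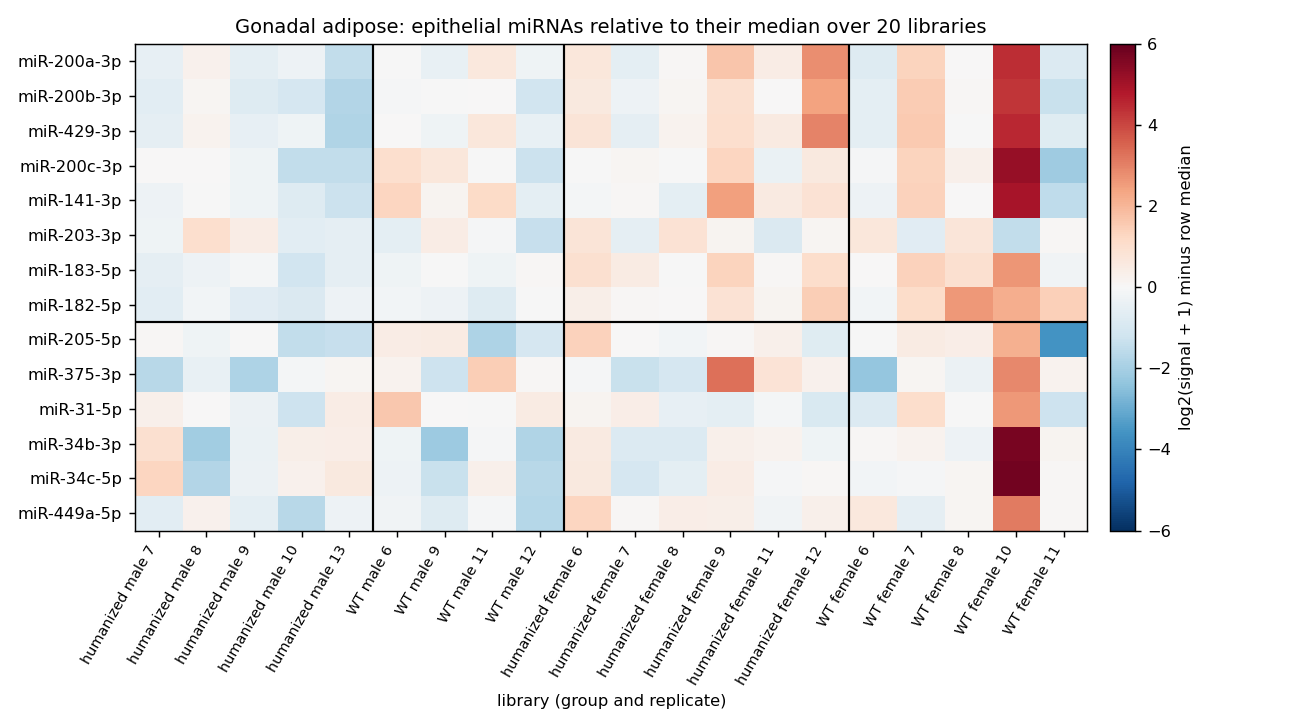
Heat map of log2(signal + 1) minus the median of its row for the 8 measured members and 6 other epithelial microRNAs (rows) in the 20 adipose libraries (columns, by group). The column of WT female 10 is high for the 5 miR-200 members and for miR-34b-3p, miR-34c-5p and miR-449a-5p, while its miR-203-3p is low.

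2 humanized females had a raised miR-200 signal of a different make-up. Humanized female 12 was the second highest library for the chromosome 4 members, with 15832 of miR-200a-3p, 3723 of miR-429-3p and 2957 of miR-200b-3p. Its miR-200c-3p (2127) and miR-141-3p (674) lay within the range of the other libraries without WT female 10. Humanized female 9 was the second highest for miR-141-3p (2051) and the third for miR-200a-3p (7117). It also had the highest miR-216a-5p, miR-216b-5p and miR-217-5p, microRNAs of the pancreas, at 1924, 3362 and 9449.5 against at most 284, 418 and 1184 in the other libraries, and 5909 of miR-375-3p, a microRNA of endocrine and glandular cells, against 118 to 4469.5 elsewhere. The part of these microRNAs' source in the miR-200 values was not tested. In males the miR-200 sum stayed between 1766 and 6987, and in females it ran from 2218 to 133703.

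In liver no member was called by genotype or sex. None of the 8 was called for humanized against WT in males, in females or in both sexes, nor for the genotype by sex term, where 0% of all features were called, and none was called by sex, where 9.20% of all features were. At an unadjusted p under 0.05 there was 1 member, miR-183-5p in males, where 5.50% of all features passed. No member passed in the other 4 comparisons. There 23.9% of all features passed by sex, 2.99% in females, 3.11% over both sexes and 2.99% for genotype by sex. In males miR-183-5p was from 35.7 to 281 with a median of 117 in 6 humanized libraries, and 261, 373, 157, 337 and 145 in WT libraries. 4 of 6 humanized males lay below every WT male and 2 WT males above every humanized male, a difference of -0.97 on the log2 scale (SE 0.46, limma adjusted p = 0.847). In females it was 189, 318, 169, 136 and 166 in humanized libraries and 164, 325, 291, 159 and 97.7 in WT libraries, which overlapped, with a difference of -0.02. The difference in males was 0.06 in the name form 2 libraries alone (limma adjusted p = 1.00) and -2.13 in the name form 1 libraries alone (limma adjusted p = 0.999), and -0.62 over both forms without humanized male 3. miR-182-5p in males was from 370.4 to 1264 with a median of 800.3 in humanized libraries, and 1549, 2443, 907, 2059 and 522 in WT libraries. All 6 humanized males lay below the WT median and 3 of 5 WT males above every humanized male, with a difference of -0.76 on the log2 scale (SE 0.42, limma adjusted p = 0.904). Over the 8 members the differences in males ran from -0.97 to 0.04, with 7 of 8 lower in humanized mice. The median over all features was -0.03 there, and members of 1 gene cluster moved together, so these are not 7 separate cases. In females the differences ran from -0.27 for miR-203-3p to 0.19 for miR-200b-3p.

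By sex, liver differences ran from -0.17 for miR-182-5p to 0.29 for miR-203-3p, against -1.39 and -0.16 for the same members in adipose tissue, which was fitted as a separate table. Whether the sex difference itself differed between tissues was not tested. Liver miR-203-3p was 5902 to 16337 (median 10768) in males and 6328 to 15269 (median 9193) in females, with an adjusted p of 0.254. Its other arm, miR-203-5p, was called higher in males by 0.55 on the log2 scale (SE 0.13, limma adjusted p = 0.0116). It was the 1 called of 3 other arms tested. Of 6 other epithelial microRNAs tested in liver 1 was called by sex, where 9.20% of all features were called. It was miR-31-5p, lower in males at -0.72 on the log2 scale (SE 0.14, limma adjusted p = 0.0042). miR-200a-3p in liver was from 1069.7 to 4537 with a median of 3400.1 in humanized males, and 12724, 1637, 3555, 4003 and 2497 in WT males. In females it was 4025, 5134, 3187, 1860.3 and 2977 in the humanized group and 2764, 6321, 3111, 1878 and 1984 in the WT group. WT male 1 was the highest liver library for all 5 miR-200 members, and the other 20 overlapped across groups. That library also had 145282 of miR-143-3p, a microRNA of smooth muscle and fibroblasts, against 12154 to 51516 in the others, and the highest signal of the muscle microRNAs miR-133a-3p and miR-1a-3p. The part of other cell types in its miR-200 values was not tested.

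**Figure D4:**
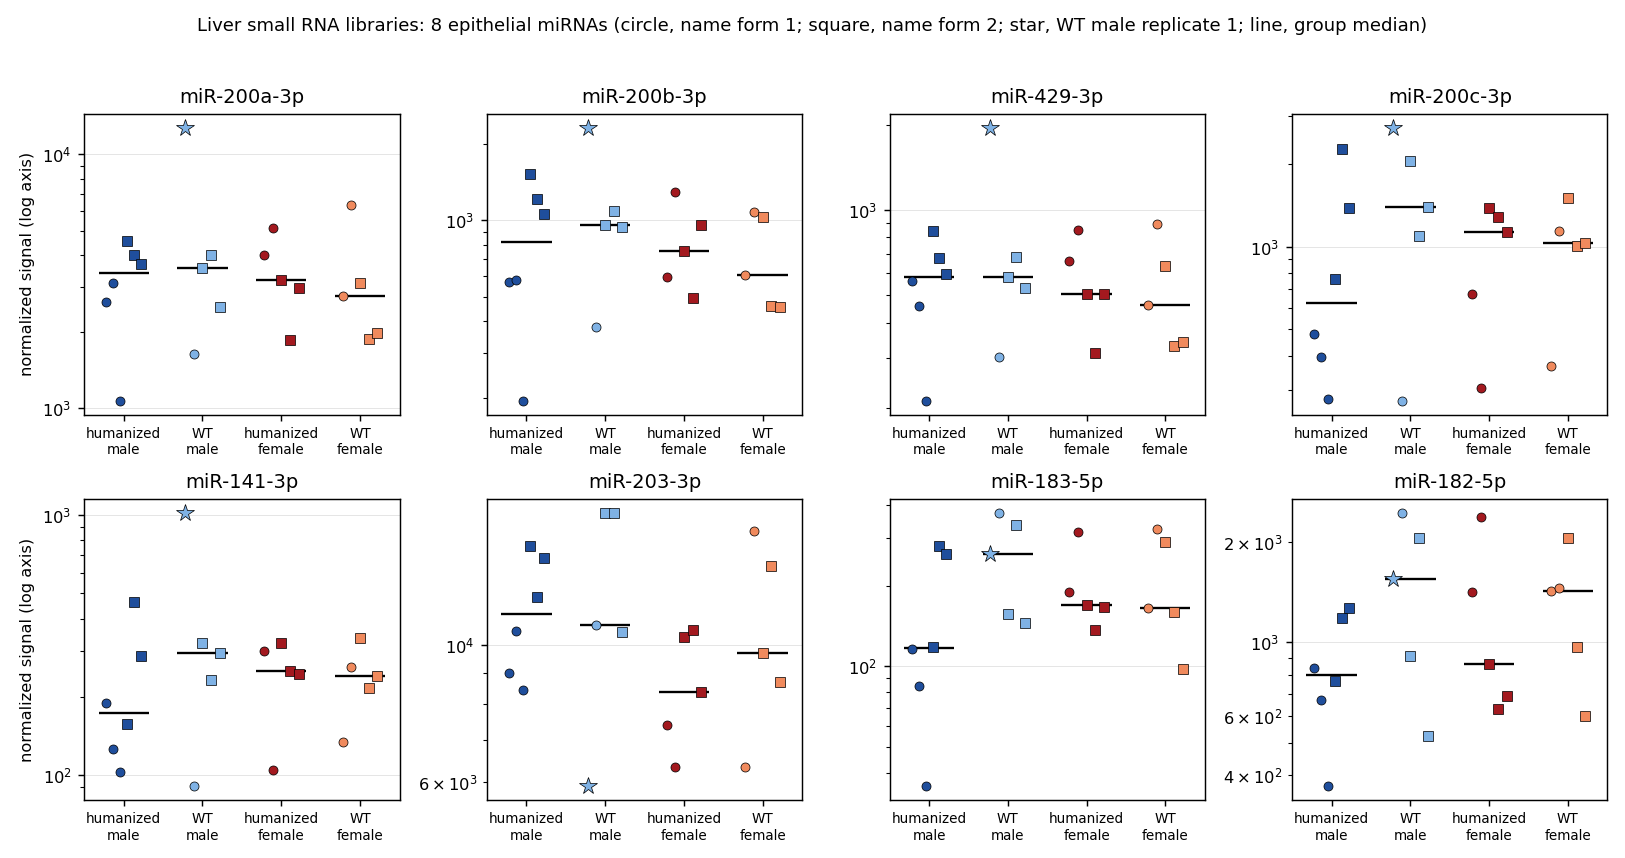
Normalized signal of the 8 measured members in each of the 21 liver small RNA libraries on a log axis, humanized and WT males and then humanized and WT females from left to right. Circles are name form 1, squares name form 2, the star WT male 1 and the short lines group medians; the groups overlap in every panel, the star is highest in the 5 miR-200 panels, and most squares lie above most circles for miR-200c-3p.

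In liver miR-200c-3p and miR-203-3p differed with the form of the library name, as did many other features. These 2 of the 8 were called, near the 18.2% of all features that were, with name form 2 higher for both. miR-200c-3p was 765 to 2275 (median 1334) in 12 form 2 libraries and 273 to 2725 (median 395) in 9 form 1 libraries, a difference of 1.27 on the log2 scale (SE 0.34, limma adjusted p = 0.0122). The forms overlapped through WT male 1 and WT female 2, the only form 1 libraries above the lowest form 2 library. miR-203-3p was 8373 to 16337 (median 11253) in form 2 libraries and 5902 to 15269 (median 8457) in form 1 libraries, a difference of 0.48 on the log2 scale (SE 0.16, limma adjusted p = 0.0346). The call of miR-203-3p was lost without any 1 of several single libraries, that of miR-200c-3p in none of these (adjusted p at most 0.0312), and without WT male 1 miR-141-3p was called as well (0.87, adjusted p = 0.0158). In adipose tissue 0 of 8 were called, against 22.9% of all features, with miR-203-3p nearest at 0.78 on the log2 scale (SE 0.28, limma adjusted p = 0.0525) and 1 member at an unadjusted p under 0.05. Other microRNAs of the lists moved further with the form: in liver miR-205-5p differed by 4.23 on the log2 scale (SE 0.60, limma adjusted p = 7.76e-05) and miR-375-3p by -2.54 on the log2 scale (SE 0.22, limma adjusted p = 4.91e-07). miR-205-5p was listed at 0 in humanized males 1 and 3, both of form 1, so the size of its difference depends in part on that floor. The name form comparison was chosen after the values were seen, and the part of the name form in single-library levels was not tested.

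The miR-200 members moved by gene cluster. Over the 21 liver libraries Pearson r of log2 values was 0.90 to 0.98 among the 3 chromosome 4 members, 0.92 between miR-200c-3p and miR-141-3p, and 0.46 to 0.60 between members of the different clusters. In the 20 adipose libraries the same values were 0.97 to 0.99, 0.93 and 0.81 to 0.90, and without WT female 10 they were 0.93 to 0.98, 0.84 and 0.59 to 0.78. miR-200a-3p and miR-141-3p, which share a seed, therefore tracked each other less closely than miR-200a-3p tracked its cluster neighbour of the other seed. miR-183-5p and miR-182-5p had r of 0.88 in liver and 0.78 in adipose tissue. Between these 2 and the miR-200 members r was -0.02 to 0.60 in liver and 0.43 to 0.86 in adipose tissue. In adipose tissue miR-183-5p thus tracked miR-200b-3p (0.86) more closely than its cluster neighbour miR-182-5p. Without WT female 10 the values of miR-183-5p were 0.76 with miR-200b-3p and 0.72 with miR-182-5p. Between miR-203-3p and the other members r was -0.10 to 0.32 in liver and -0.37 to -0.05 in adipose tissue, or -0.06 to 0.23 there without WT female 10. These values are descriptions over libraries that share a normalization, a protocol and the name forms, and they carry no test. The summed signal of the chromosome 4 members over that of miR-200c-3p and miR-141-3p had a median of 3.88 in liver (1.74 to 17.8) and 1.83 in adipose tissue (0.881 to 8.04). It was 2.47 in form 2 and 5.92 in form 1 liver libraries, and 1.46 and 2.67 in adipose tissue, where the ranges of the forms overlapped and no test was run. The highest adipose ratio was that of humanized female 12, and WT female 10 had 1.12.

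As a share of listed reads, counted on the same assumption, the miR-200 sum had a median of 543 RPM in liver and 337 RPM in adipose tissue, where WT female 10 reached 7095 RPM. By median signal in adipose tissue miR-203-3p was highest (22942), followed by miR-200a-3p (2256), miR-200c-3p (1394), miR-200b-3p (559), miR-182-5p (472), miR-429-3p (466), miR-141-3p (368) and miR-183-5p (87.5). The 4 from miR-200b-3p to miR-141-3p overlapped widely across libraries. In liver the order of the medians was miR-203-3p (10492), miR-200a-3p (3111), miR-200c-3p (1097), miR-182-5p (965), miR-200b-3p (938), miR-429-3p (559), miR-141-3p (245) and miR-183-5p (166). How well the kit captured each sequence was not measured, so the order is one of signal and not of molecules. The members were read almost wholly from 1 arm of their hairpins. Of the 9 other arms, miR-203-5p was above 0 in all 41 libraries, miR-200a-5p in 16 of 21 liver and 16 of 20 adipose libraries, and miR-200b-5p in 18 of 21 and 18 of 20. miR-141-5p was above 0 in 1 adipose library, WT female 10 (74.6), and the others were listed at 0 throughout.

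Forms with a shifted end were a large part of 2 members. The form named +1 made up 44.5% of all miR-203-3p signal in liver and 38.1% in adipose tissue, and 23.9% and 28.8% of miR-183-5p signal. In single libraries the +1 form was 40.2% to 51.7% of miR-203-3p (unshifted and +1 together) in liver and 34.4% to 42.4% in adipose tissue, so its share varied little. If +1 stands for a start 1 base later, which the files do not define, the seeds would be those below.
miR-203-3p +1 form: uGAAAUGUuuaggaccacuag
miR-183-5p +1 form: aUGGCACUgguagaauucacu
By contrast only the unshifted form of miR-182-5p was above 0, and unshifted forms made up 92.2% of miR-200b-3p in liver, 95.6% in adipose tissue, and 98.6% or more of the other miR-200 members.

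Features most like the families were named by Pearson r with the family's mean log2 signal, among 379 unshifted features in liver and 537 in adipose tissue. In liver the nearest to the miR-200 family were miR-218-1-5p (r = 0.82), miR-218-2-5p (0.81), miR-187-3p (0.71), miR-1a-2-3p (0.71) and miR-1a-1-3p (0.71), over 21 libraries. In 11 males r of miR-218-1-5p was 0.89 and in 10 females 0.52. In adipose tissue the nearest were miR-92b-3p (0.76), miR-135a-2-3p (0.72), miR-672-5p (0.71), miR-129-2-5p (0.71) and miR-129-1-5p (0.71). WT female 10 was the highest library for each, and without it r was 0.27, 0.10, 0.40, 0.45 and 0.45, so the likeness rested in large part on that library. Those nearest to the miR-183 cluster in adipose tissue were miR-135a-1-5p (0.77), miR-135a-2-5p (0.76), miR-196a-1-5p (0.73), miR-196a-2-5p (0.73) and miR-672-5p (0.73), with 0.64, 0.64, 0.76, 0.76 and 0.56 without WT female 10. Within 9 males r was -0.04 for miR-196a-1-5p and within 11 females 0.42, and miR-135a-1-5p was listed at 0 in all males. In liver they were miR-214-5p (0.67), miR-449a-5p (0.62), miR-201-5p (0.57), miR-221-5p (0.57) and miR-93-3p (0.56). Within 10 females r was 0.03 for miR-201-5p and -0.17 for miR-93-3p, and each of these 5 features was listed at 0 in some library. Entries that differ only in a hairpin number, such as miR-218-1-5p and miR-218-2-5p, come from near-identical copies, and their values are uncertain because the authors' counting could split reads between them.

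The mRNA libraries of the same tissues were read for epithelial genes and for targets of the families; they could not be matched to the small RNA libraries by animal. In adipose tissue 0 of 19 epithelial genes tested were called by sex, where 0.420% of all genes were called, and 1 passed an unadjusted p under 0.05, as did 2181 of all 17394 genes. Their median difference was -0.56, lower in males, against 0.00 over all genes. None was called in humanized against WT males, females or both sexes, where 0.0172%, 0.0172% and 0.0230% of all genes were called, or for genotype by sex (0%). At an unadjusted p under 0.05 there were 1, 0, 0 and 2, where 8.41%, 5.25%, 7.11% and 6.80% of all genes passed. The simple-epithelium keratin gene Krt19 had a signal of 347, 1851 and 2961 in humanized males and 2855 and 1648 in WT males. It was 3670.4, 5963 and 8220.0 in humanized females and 1016, 6576 and 2023 in WT females. Females were higher in 4 of 6 libraries than every male, and WT females 4 and 6 fell among the males. The mesothelial gene Upk3b was 1303, 8208 and 9726 in humanized males and 9912 and 6486 in WT males. It was 15930.4, 23168 and 36752 in humanized females and 3003, 25515 and 6788 in WT females, with WT females 4 and 6 again at male levels. Of 10 mesothelial genes tested, 0 were called by sex and 2 passed an unadjusted p under 0.05, with a median difference of -0.83. In the 4 comparisons that involve genotype 0 were called and at most 1 passed an unadjusted p under 0.05.

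**Figure D5:**
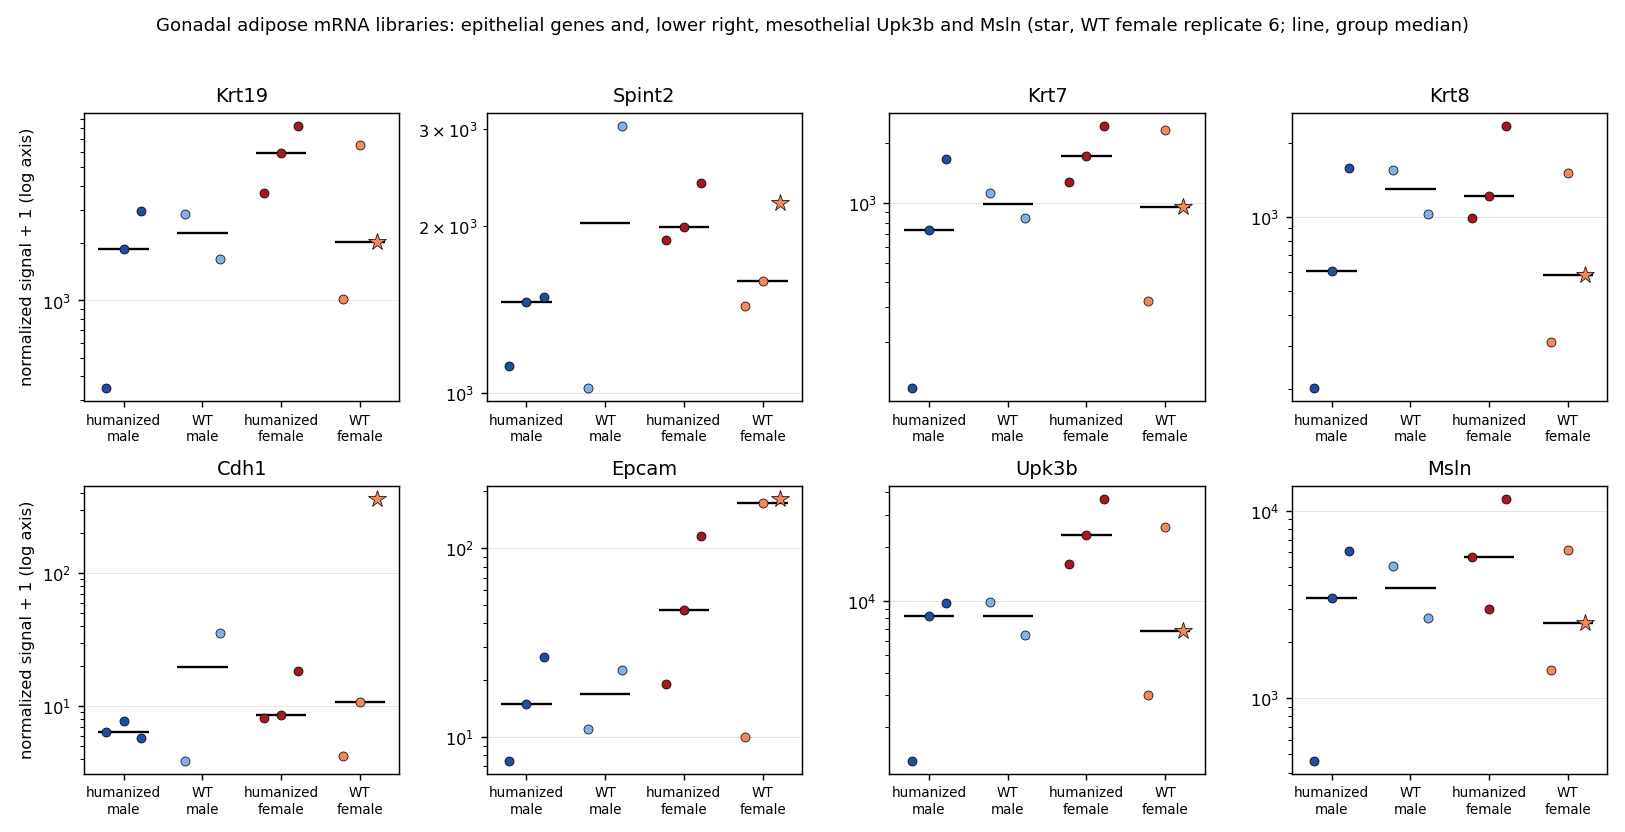
Normalized signal plus 1, on a log axis, of the epithelial genes Krt19, Spint2, Krt7, Krt8, Cdh1 and Epcam and the mesothelial genes Upk3b and Msln in the 11 adipose mRNA libraries, humanized and WT males and then humanized and WT females from left to right. The star is WT female 6, which stands apart for Cdh1 (361) but lies among the other libraries for Krt19, Upk3b and Msln.

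1 adipose mRNA library, WT female 6, was highest in 14 of the 28 epithelial genes, of which 19 had a mean signal of at least 10. The share of all genes that were highest in this library was not counted. By the summed signal of the list the highest library was humanized female 6, with 20099.5, which was highest in 6 of the genes. E-cadherin, Cdh1, was 5.42, 6.80 and 4.78 in humanized males and 2.91 and 34.6 in WT males. It was 7.22, 7.69 and 17.6 in humanized females and 3.26, 9.85 and 361 in WT females, where the last value is WT female 6. Epcam, an epithelial adhesion gene, was 6.51, 14 and 25.6 in humanized males, 10.0 and 21.8 in WT males, 18.1, 46.1 and 116 in humanized females and 9.06, 173 and 181.7 in WT females. Cdh1 was at most 34.6 in the other 10 libraries, while Epcam was also high in WT female 5 and humanized female 6. WT female 6 also held 142 of Pax8 and 307 of Wfdc2, genes of kidney and reproductive tract epithelium, against at most 3.90 and 51.4 elsewhere. These 2 were picked after their values were seen. Of the 9 oviduct and uterus genes above 0 in adipose tissue, this library was highest for only 3. None of the 13 epididymis and vas deferens genes (2 tested), 10 oviduct and uterus genes (6 tested), 10 ovary genes (6 tested), 12 cholangiocyte genes (9 tested) and 9 mammary and skin genes (2 tested) was called in adipose tissue in any of the 5 comparisons. At an unadjusted p under 0.05 at most 1 gene of each list passed in any comparison. The part of these cells in the sex difference of the miR-183 cluster was not tested.

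Among the known targets, adipose Zeb1 ranged over 11 libraries from 4169 to 6116 and Zeb2 from 9282 to 21516, with WT female 6 within both ranges and lowest for Zeb1. Of 7 miR-200 targets and 7 miR-183 cluster targets tested in adipose tissue, 0 and 0 were called in any comparison, and by sex 0 and 0 passed an unadjusted p under 0.05, with at most 2 of a list in the other comparisons. Their median differences by sex were 0.02 and 0.08. In liver 3 of 21 epithelial genes tested were called by sex, where 9.59% of all genes were called and 4.12% higher in males. Krt8 was 17341, 21380.2 and 29734 in humanized males and 23309, 19272 and 19698 in WT males, against 12416, 11779.5 and 12342 in humanized females and 13240.2, 16521 and 11005 in WT females. All 6 males lay above all 6 females for this keratin, which hepatocytes also express, and the difference was 0.75 (SE 0.14, limma adjusted p = 0.0111). Its partner keratin Krt18 differed by 0.57 (SE 0.16, limma adjusted p = 0.0457) and the protease inhibitor gene Spint2 by 0.63 (SE 0.13, limma adjusted p = 0.0173), both higher in males. Of 7 cholangiocyte genes tested, 1 was called by sex, Sox9, a transcription factor of bile duct cells, at 244, 317 and 151 in humanized males, 566, 588 and 377 in WT males, 100.4, 154 and 151 in humanized females and 181, 89.9 and 106 in WT females. It was higher in males by 1.41 (SE 0.22, limma adjusted p = 0.00379); the 3 WT males lay above every female, and humanized males overlapped with females. Of 6 miR-200 targets tested 1 was lower in males, Msn, which encodes the cytoskeletal linker moesin, which differed by -0.74 (SE 0.21, limma adjusted p = 0.0483), and of 7 miR-183 cluster targets 1, the transcription factor gene Foxo1, which differed by -0.53 (SE 0.15, limma adjusted p = 0.0465), where 5.47% of all genes were called lower. The calls of Krt18, Msn and Foxo1 were lost in several alternatives, with adjusted p up to 0.109, 0.105 and 0.107. None of the epithelial genes or targets was called in liver between humanized and WT males, females or both sexes, or for genotype by sex, where 0.0329%, 0.0198%, 0.0329% and 0.00659% of all genes were called. At an unadjusted p under 0.05 there was 1 epithelial gene in each of these 4 comparisons, and at most 2 targets of a list. In the same order, 7.13%, 5.66%, 5.07% and 8.18% of all genes passed. Zeb1 in liver ranged from 728 to 1344 over 12 libraries and Zeb2 from 362 to 877.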

How the data were processed

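Per the labels, the CleanTag kit served for the small RNA libraries; mRNA libraries of the same tissues were used beside them. The deposited small RNA and mRNA tables held signal that the authors normalized per table, with DESeq2 named in the submitters' processing notes, and a second pair of small RNA tables held regularized, batch-corrected log2 values of the authors, used only as an alternative. The submitters' processing notes also name STAR, Salmon, limma and the mouse build mm9, with no role given here; RefSeq sequences are from GRCm38.p6, and no coordinate came from the deposited tables. Each small RNA value was a whole number of library steps within 0.01, with nothing under 10 steps, and a step was taken as 1 read, which no source states; intervals from reads were not formed.

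Features with a mean signal of at least 10 were fitted as log2(signal + 1) with limma 3.58.1 in R 4.3.3, with a trend on the mean, 4 groups and the name form (liver mRNA: the labelled library preparation). The added 1 slightly understates the change of low features. Small RNA values under 10 steps are listed at 0, and on this scale a fall below that floor counts as a large change. Differences of small RNA features at 0 in some libraries can therefore be overstated. The 5 comparisons were adjusted by the Benjamini-Hochberg method over all features of a table, and called at an adjusted p under 0.05. The fit was tested on simulated data. Alternatives were a pseudocount of 10, no filter, no covariate, each name form alone, equal totals, the batch-corrected values, a replicate block and each library left out. The name form comparison and leaving out WT female 10 with humanized female 9 were added after the data were seen. Beside the members, named were entries of the microRNA lists, of each mRNA list the 4 highest genes and those called, and the 5 features nearest to each family by Pearson r; Cdh1, Epcam, Pax8, Wfdc2 and the miR-216 and miR-217 entries were named after their values were seen. The members and the lists (epithelial, mesothelial, reproductive tract, cholangiocyte, mammary and skin genes, targets, and other epithelial, gonad and tissue check microRNAs) were chosen with earlier results of these data known.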

Additional observations from a re-analysis of the deposited data

Results flagged for a closer look

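Within each group of 4 to 6 libraries, the highest and lowest values of each measured member were compared with the rest by Dixon's criterion. Of 64 groups tested, 14 had a library far from the others. The criterion was applied to the signal itself, not to its log2 as in the fits. Its rate by chance of about 1 in 20 groups assumes normally distributed values. Whether the signal meets this was not tested, so the 14 cannot be set against that rate. All flags were high values, except that of WT male 12 for miR-200b-3p in adipose tissue. Members of 1 gene cluster also share their libraries, so these are not 14 independent cases. In adipose tissue WT female 10 was far above the other WT females for all 5 miR-200 members, with 48803 of miR-200a-3p (next 5753), 10999 of miR-200b-3p (next 1596), 51866 of miR-200c-3p (next 3510.1), 11344 of miR-141-3p (next 976) and 10691 of miR-429-3p (next 1395). Among humanized females, library 12 stood apart for miR-200b-3p (2957, next 1104) and miR-429-3p (3723, next 944), and library 9 for miR-141-3p (2051, next 674). Among WT males, library 12 was low for miR-200b-3p (251, next 534).

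In liver WT male 1 stood above the other WT males for miR-200a-3p (12724, next 4003), miR-141-3p (1021, next 323) and miR-429-3p (1949, next 683). Among WT females, library 2 had 6321 of miR-200a-3p (next 3111), and among humanized females, library 2 had 318 of miR-183-5p (next 189).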

How the results depend on the processing

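Of 1126 values recomputed for 51 results, 1044 kept their direction and their side of the threshold, or a count within 1.5 times. In adipose tissue the count of 2 members called by sex became 0 in the name form 1 libraries alone and 0 in the name form 2 libraries alone, which hold fewer libraries. It stayed at 2 in every other alternative, including each library left out, with adjusted p up to 0.0115 for miR-182-5p and 0.0490 for miR-183-5p when 1 library was left out. The difference of miR-200c-3p by sex turned to 0.11 and that of miR-141-3p to 0.19 in name form 2 libraries, against -2.08 and -1.86 in name form 1 libraries, and that of miR-141-3p to 0.0207 without WT female 10 and humanized female 9; the cause was not tested. In liver the count by sex, 0 with all libraries, was 2 in name form 2 libraries alone and 0 to 1 with 1 library left out, and the difference of miR-183-5p between humanized and WT males turned to 0.0584 in name form 2 libraries and was -2.13 in name form 1 libraries. The count by name form was 1 to 2 in liver with 1 library left out; in adipose tissue, 0 with all libraries, it was 1 with a pseudocount of 10, 1 with equal totals and 0 to 1 with 1 library left out. The liver miR-200 target called by sex, Msn, gave 0 with no filter, 0 with equal totals and 0 to 1 with 1 library left out. No member was called by genotype under any alternative run. Equal totals moved the median of all adipose features by 0.16 for humanized against WT males, and by 0.11 over both sexes and for genotype by sex.

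With the replicate number as a block, 2 members were called by sex in adipose tissue and 0 in liver; the epithelial genes called by sex in liver were 2. Same-numbered libraries did not deviate together (mean r of -0.02 over 30 pairs in liver and -0.06 over 17 pairs in adipose tissue), and 7 of 20 liver and 0 of 19 adipose libraries were closest to their own number. A count test was not run, since nothing under 10 steps is listed. Depth limits miR-96-5p, where a signal under 10 steps could not be seen, and the small number of libraries in each group limits all of these tests.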
